A study of Mus musculus with 3 samples.

Results

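The miRNA pool of healthy colonic mucosa was described from the 1 wild type library of a series of 3 mouse small RNA libraries, using all 471 rows of its column. Per the labels, this library (WT) came from the colon mucosa of a healthy mouse of the genotype global mir-10b+/+. No level given here is from the KO library, labelled diabetic, or from the mir-10b-/- animal injected with a miR-10b-5p mimic. Those libraries served only to find rows equal in all 3 libraries, which an alternative near the end counted once. Strain, sex and age are not given in the labels, nor is the number of animals behind the library. Values are normalized reads per mature miRNA as deposited. They sum to 4872446 in WT, the sequencing depth is unknown, and no value has a replicate spread, so no test was run. Of the 471 rows, 465 were above 0.

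A miRNA gene is transcribed as a long primary transcript in which a hairpin folds. The enzymes Drosha and Dicer cut the hairpin to a short duplex, and 1 strand, from the 5′ side (5p arm) or the 3′ side (3p arm), is loaded into an Argonaute protein while the other is mostly degraded. The seed, bases 2 to 8 from the 5′ end of the loaded strand, largely decides which mRNAs are bound, so miRNAs that share a seed are treated as a family. In the colon, miR-192, miR-194, miR-215 and the miR-200 family are typical of the epithelium, miR-143 and miR-145 of smooth muscle and other mesenchymal cells, and miR-21 is widely linked to injury and inflammation.

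The mature sequences that carry most of the WT reads are given with the seed in capitals, to make visible which abundant miRNAs share a seed. They are RefSeq entries on GRCm38.p6, written 5′ to 3′. Abundant rows whose names matched no RefSeq sequence are missing, among them miR-143-3p, miR-145a-5p, miR-378a-3p, miR-375-3p and miR-23b-3p.
miR-192-5p: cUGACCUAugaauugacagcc
miR-215-5p: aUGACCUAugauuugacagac
miR-194-5p: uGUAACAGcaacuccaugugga
miR-200a-3p: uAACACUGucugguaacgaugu
miR-141-3p: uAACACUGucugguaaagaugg
miR-200b-3p: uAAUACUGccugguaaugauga
miR-429-3p: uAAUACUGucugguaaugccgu
miR-200c-3p: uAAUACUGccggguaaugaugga
miR-27b-3p: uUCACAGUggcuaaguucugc
miR-27a-3p: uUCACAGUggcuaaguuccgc
miR-23a-3p: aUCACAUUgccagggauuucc
miR-21a-5p: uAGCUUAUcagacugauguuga
miR-26a-5p: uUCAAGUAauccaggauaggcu
miR-26b-5p: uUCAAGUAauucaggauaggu
miR-29a-3p: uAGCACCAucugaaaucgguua
let-7f-5p: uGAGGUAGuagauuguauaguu
let-7g-5p: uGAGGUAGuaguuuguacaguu

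The reads were concentrated in few miRNAs. miR-192-5p led with 656011 normalized reads, 13.5% of the WT total and 1.72 times the next row. miR-200a-3p followed with 380522 reads (7.81%), and miR-21a-5p with 319136 (6.55%). These rows are an epithelial miRNA, a repressor of the ZEB transcription factors that keeps cells epithelial, and the injury-linked miRNA named above. The next rows were miR-27b-3p at 299991 (6.16%), miR-143-3p at 294225 (6.04%), miR-145a-5p at 261621 (5.37%) and miR-378a-3p at 211958 (4.35%). miR-27b acts in lipid metabolism and vessel growth among other processes, and miR-378a lies in Ppargc1b, a regulator of mitochondrial metabolism. With miR-200b-3p at 171853 reads (3.53%), the 8 most abundant rows passed 50% of the total.

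At the other end of the pool, the 21 most abundant rows passed 75% of the total, 51 rows passed 90% and 167 rows passed 99%. The 11 rows of at least 100000 reads held 60.3%, the 46 rows from 10000 to under 100000 held 31.5%, and the 96 rows from 1000 to under 10000 held 7.05%. The median row stood at 253 reads, or 0.00519% of the total, and the leading row was 2593 times as high. The entropy of the shares equalled that of 43.5 equally abundant miRNAs. Most of the 471 listed miRNAs together made up a small part of the reads.

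**Figure D1:**
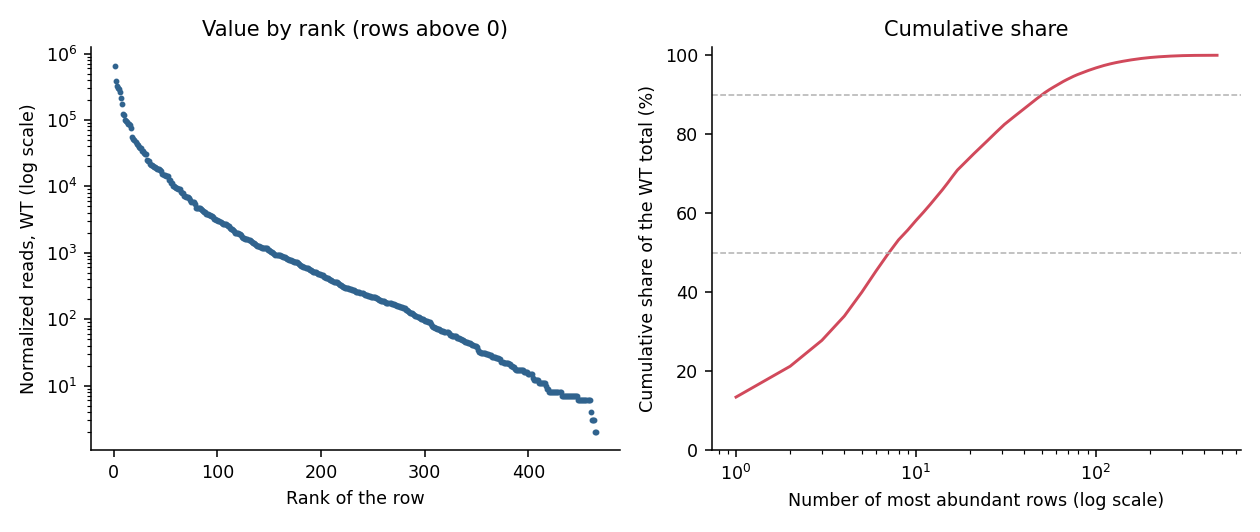
Left, normalized reads (log scale) of each row above 0 against its rank in WT; right, cumulative share of the WT total (%) against the number of most abundant rows (log scale), with dashed lines at 50% and 90%. The curve crosses 50% at 8 rows and 90% at 51 rows.

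Low values had an uneven lower edge. Rows listed at 0 numbered 6, namely miR-346-5p, miR-34b-5p, miR-3547-3p, miR-365-5p, miR-384-5p and miR-431-3p. Another 6 rows lay between 1 and 5 reads, and 40 rows lay at 6 to 8. Single values in this range were not read as present or absent.

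Of the 25 most abundant rows, 10 were 5p arms and 15 were 3p arms, with 35.3% and 43.1% of the total. The ranks after miR-200b-3p began with miR-26a-5p (120950 reads), miR-23a-3p (118055) and miR-29a-3p (101418). miR-26a is widely expressed and restrains cell growth, and miR-29a represses collagen genes. miR-27a-3p stood at 96824, and miR-375-3p, which is typical of endocrine cells and also present in other gut epithelium, at 93198. miR-194-5p, miR-215-5p and miR-429-3p then lay close together at 85675, 85529 and 83919 reads. With 1 library, their order cannot be told from sampling or preparation error. The remaining rows of the 25 ran from miR-23b-3p at 75844 to miR-148a-3p at 37461 and included miR-141-3p, let-7f-5p, let-7g-5p, miR-26b-5p, miR-101a-3p, miR-10a-5p and miR-126a-3p.

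**Figure D2:**
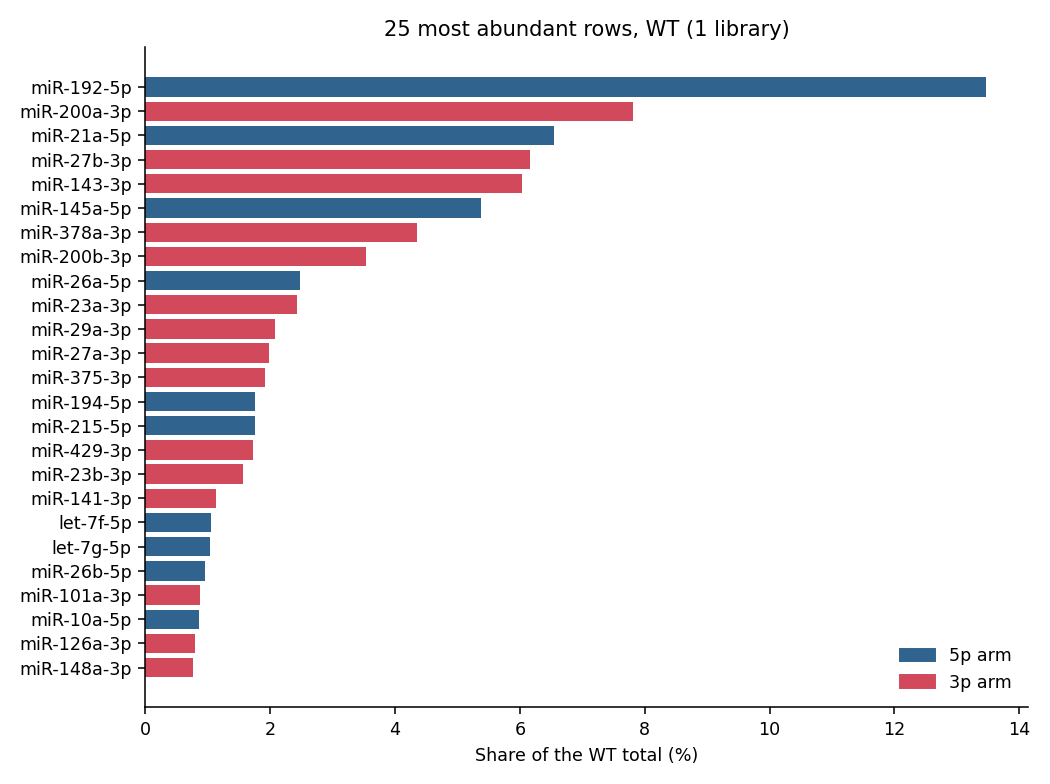
Share of the WT total (%) for the 25 most abundant rows, 1 library; bar colour gives the arm of the hairpin. miR-192-5p stands at 13.5% and the last row shown, miR-148a-3p, at 0.769%.

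Epithelial miRNAs held the largest share of the cell type lists, which were chosen with earlier results of these data known. The epithelial list (miR-192, miR-194, miR-215, the 5 miR-200 members and miR-375) had 17 rows, all above 0, and held 33.6% of the total. Within it, the 5p arms of miR-192, miR-194 and miR-215 made up 17.0% of the WT reads, and the 3p arms of the 5 miR-200 members made up 14.5%. The list labelled smooth muscle, which joins miR-143, miR-145a and miR-145b with the striated muscle miRNAs miR-1a, miR-133a, miR-133b and miR-206, had 10 rows and 11.8%, of which miR-143-3p and miR-145a-5p supplied 51.2% and 45.6%. Its listed striated muscle members were far lower, with miR-1a-3p at 2989 reads, miR-133b-3p at 2158 and miR-206-3p at 7. Of miR-133a only the 5p arm was listed, at 70 reads, so the list lacks its 3p arm. In bulk tissue, fewer cells of a type and less of a miRNA per cell cannot be told apart.

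Other cell types left smaller shares. Fibroblast and mesenchyme miRNAs (miR-199a, miR-199b, miR-214, miR-218) held 1.48% over 6 rows, led by miR-199b-3p at 34591 reads. Endothelial miR-126a, encoded in Egfl7, held 1.23% over both arms. White blood cell miRNAs held 1.06% over 9 rows, with miR-142a-5p at 31674, miR-146a-5p at 9351, miR-342-3p at 4674 and miR-223-3p, a miRNA of myeloid cells, at 1438. The endocrine list of miR-375 and miR-7 held 2.01%, and miR-375-3p, also a member of the epithelial list, supplied 93198 of its 98103 reads.

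The red blood cell and neuronal lists were the lowest of the cell type lists. Red blood cell miRNAs held 0.0451% over 4 rows, with miR-451a, which is abundant in erythrocytes, at 1615 reads and miR-144-3p at 324. Neuronal miRNAs held 0.0759% over 13 rows, the highest being miR-128-3p at 863, while miR-124-3p, a miRNA enriched in neurons, stood at 168. miR-122-5p, the dominant miRNA of liver, was listed at 11 reads.

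Grouping by seed gathered the reads further. Among the 385 rows with a RefSeq sequence there were 316 different seeds, and 41 seeds were shared by 2 or more rows. Those 110 rows held 57.4% of the WT total. The 10 largest families, counting a row without a sequence as a family of its own, held 68.2%.

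The largest family had the seed UGACCUA. It joined miR-192-5p with miR-215-5p, at 741540 reads or 15.2% of the total, and miR-192-5p was 7.67 times its partner. Counted from the 5′ end of miR-192-5p, the partners differ by C1A, A12U and C20A, all outside the seed.

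The miR-200 family divides into a pair of seeds that differ at 1 base, U4C from miR-200b-3p to miR-200a-3p, counted from the 5′ end. The AACACUG group, miR-200a-3p with miR-141-3p (54818 reads), held 435340 reads or 8.93%. The AAUACUG group held 273195 reads or 5.61%, from miR-200b-3p at 171853, miR-429-3p at 83919 and miR-200c-3p at 17423. In both groups the member encoded on chromosome 4 was above its relative on chromosome 6, and miR-200b-3p was 9.86 times miR-200c-3p.

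The third family by share, seed UCACAGU, held 8.14% and consisted of miR-27b-3p and miR-27a-3p, which differ by U19C and stood in a ratio of 3.10. miR-21a-5p, alone with its seed among rows with a sequence, made up 6.55%. miR-143-3p, miR-145a-5p and miR-378a-3p were counted on their own because their names matched no RefSeq sequence. Whether their seeds are shared with other rows, such as miR-378c at 14557 reads or miR-145b at 759, was not tested. The order of these families by share is uncertain to that extent. let-7, which restrains proliferation and growth, had 9 rows with the seed GAGGUAG and 222583 reads (4.57%), spread more evenly than the families above it. Its members ran from let-7f-5p at 51022 and let-7g-5p at 50354, over let-7i-5p at 37176 and let-7c-5p at 30393, to let-7e-5p at 2350 and miR-98-5p at 1662. The leading member held 22.9% of the let-7 reads.

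The seed UCAAGUA joined miR-26a-5p and miR-26b-5p at 3.43%. In the miR-29 family (AGCACCA, 2.20%), 94.4% of the reads were miR-29a-3p, while miR-29c-3p stood at 4730 and miR-29b-3p at 1249. miR-23a-3p was counted alone at 2.42%, as miR-23b-3p had no sequence. Joined by name with miR-23b-3p it reached 3.98%, which placed it above the miR-26 family.

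**Figure D3:**
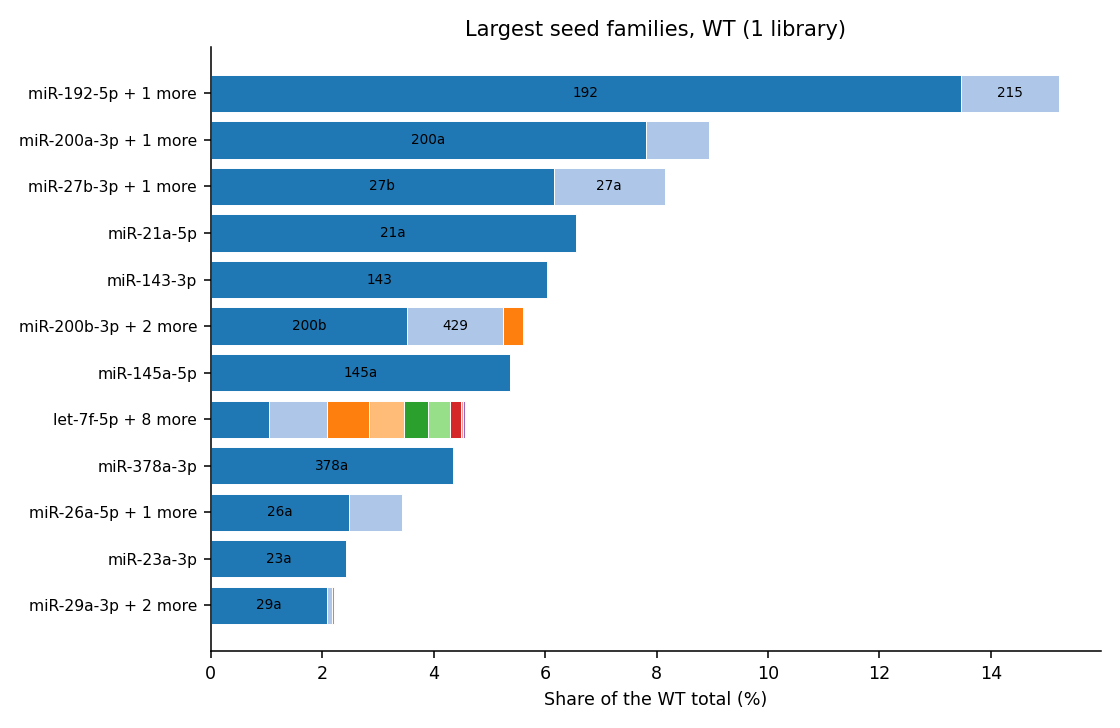
Share of the WT total (%) of the 12 largest seed families, with each bar divided by member. Larger members carry their number, and a row without a sequence stands as a family of its own. The miR-192/miR-215 bar reaches 15.2%, and the let-7 bar, at 4.57%, is divided over 9 members.

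Near-identical sequences limit how finely the members can be separated. Among rows with a sequence, 18 pairs involving 33 rows differed by at most 1 base over their shared length, and those rows held 16.6% of the total. They include miR-27b-3p and miR-27a-3p, miR-10a-5p at 42206 and miR-10b-5p at 18057 (U12A), and let-7f-5p and let-7a-5p (A12G). The rows of miR-99a-5p and its relative miR-100-5p, which differ by U16A counted from the 5′ end, both held 14536 reads, and they were equal in all 3 libraries.
miR-99a-5p: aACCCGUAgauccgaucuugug
miR-100-5p: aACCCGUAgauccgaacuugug
Whether the same reads were entered in both rows was not tested. The split between the members of such pairs is therefore uncertain. Rows without a sequence were not compared, so further pairs may exist.

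Placed on the genome, 466 rows mapped to 343 annotated hairpin loci in GENCODE M21 or RefSeq (both GRCm38). The 5 rows without a locus held 0.0142% of the total. Where a mature miRNA has several loci, as 58 rows holding 9.87% of the reads do, its value was divided equally over them. Loci on the same strand with gaps of at most 10 kb formed 47 clusters of 2 or more loci, which together held 69.9% of the WT reads, and 160 single loci held 30.1%. The 5 largest units held 53.8% and the 10 largest 69.7%.

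The leading cluster was Mir194-2/Mir192 at chr19:6264643-6264932, a span of 290 bases on the plus strand, outside any other annotated gene of that strand. It held 14.4% of the total. miR-192-5p supplied 93.5% of it. miR-192-5p was 7.66 times miR-194-5p, whose hairpin lies in the same cluster, even with the reads of both miR-194 loci counted. The paralogous cluster Mir194-1/Mir215 at chr1:185313319-185313692, within the antisense RNA gene 2010103J01Rik, held 2.75%.

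The second cluster was Mir429/Mir200a/Mir200b at chr4:156053905-156055750 on the minus strand, within Ttll10 and the noncoding transcript Gm13648. It held 13.1% of the total, of which miR-200a-3p gave 59.7%, miR-200b-3p 26.9% and miR-429-3p 13.2%. Its paralog Mir141/Mir200c, at chr6:124717914-124718390 within the antisense gene Gm15884, held 1.49%. In that cluster miR-141-3p was 3.15 times miR-200c-3p.

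Mir145a and Mir143, 1301 bases apart on chromosome 18 and outside other annotated genes of their strand, formed the third cluster with 11.7% of the reads. Its leading products were nearly level, with miR-143-3p 1.12 times miR-145a-5p. miR-145b, a separate gene on the same chromosome, stood at 759 reads, so miR-145a-5p was 345 times as high.

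The next clusters were the paralogs that encode miR-23, miR-27 and miR-24. Mir23b/Mir27b/Mir24-1 at chr13:63300484-63301275, in 2010111I01Rik, held 8.05%. Mir23a/Mir27a/Mir24-2 at chr8:84208518-84208921 held 4.75%. Their members stood in different proportions. miR-27b-3p was 3.96 times miR-23b-3p on chromosome 13, whereas miR-23a-3p was 1.22 times miR-27a-3p on chromosome 8. miR-24-3p, common to both, was at 30796 reads for the pair of loci, and miR-27b-3p was 9.74 times as high.

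Single loci among the 10 largest units were Mir21a at chr11:86584067-86584158, which overlaps an annotated exon of Vmp1 (6.56%), Mir378a in an intron of Ppargc1b (4.45%) and Mir375 at chr1:74900658-74900721 (1.91%). The ninth unit was Mir29a/Mir29b-1 at chr6:31062660-31063093, with 2.10%. Within it miR-29a-3p was 81.2 times miR-29b-3p, although the latter also has a second locus.

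**Figure D4:**
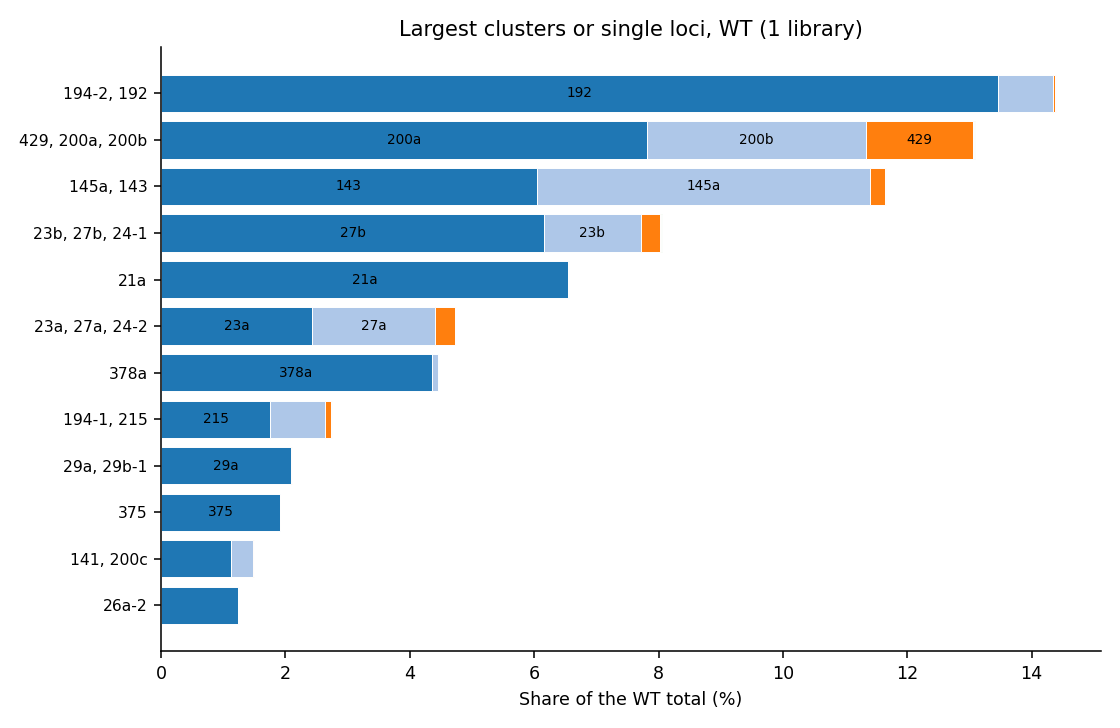
Share of the WT total (%) of the 12 largest clusters or single loci, with bars divided by mature miRNA and reads of multi-locus miRNAs divided equally over their loci; larger segments carry a number. The Mir194-2/Mir192 bar reaches 14.4%, the miR-200 bar on chromosome 4 reaches 13.1% and the miR-143/miR-145 bar 11.7%.

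The number of loci in a cluster did not follow its share. The cluster with the most loci, 33 in 38901 bases at chr12:109709060-109747960, belongs to the imprinted Dlk1-Dio3 region and held 0.288% of the reads, rank 44. A neighbouring cluster of 10 loci at chr12:109571990-109595388 held 0.36%, led by miR-127-3p at 10203. By chromosome, 9 loci on chromosome 18 held 16.2% of the reads, 14 on chromosome 4 held 14.8% and 5 on chromosome 19 held 14.5%, while 53 loci on chromosome 12 held 0.958%. Of all loci, 105 lay outside other genes of their strand and held 41.1% of the reads, 152 lay in introns and held 29.7%, and 86 overlapped an annotated exon and held 29.2%.

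Arm choice was strong and went both ways. In the whole column, 228 rows named 5p held 48.9% of the reads and 231 rows named 3p held 50.5%, with 12 rows naming no arm. Both arms were listed for 168 hairpins with at least 10 reads in all. The 5p arm was higher in 85 of them and the 3p arm in 83. At least a 10-fold difference, on values with 1 read added, was found in 105 hairpins (62.5%), 54 toward 5p (32.1%) and 51 toward 3p (30.4%). The minor arms together made up 2.73% of the reads of these hairpins. The median share of the higher arm was 94.9%.

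Hairpin sequences, from RefSeq on GRCm38.p6, show where the arms lie. Capitals mark first the 5p and then the 3p mature sequence. Mir192 represents dominance of the 5p arm, Mir200a and Mir23a that of the 3p arm, and Mirlet7d a hairpin with similar arms.
Mir192: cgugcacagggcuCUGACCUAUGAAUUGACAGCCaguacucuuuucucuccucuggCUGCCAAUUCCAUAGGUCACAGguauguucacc
Mir200a: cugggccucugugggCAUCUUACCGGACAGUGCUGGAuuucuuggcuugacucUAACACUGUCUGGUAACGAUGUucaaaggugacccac
Mir23a: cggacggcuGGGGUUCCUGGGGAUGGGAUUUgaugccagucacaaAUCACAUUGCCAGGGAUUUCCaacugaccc
Mirlet7d: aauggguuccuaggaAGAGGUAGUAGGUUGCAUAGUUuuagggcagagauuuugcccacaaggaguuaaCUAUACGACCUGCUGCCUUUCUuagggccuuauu

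The most abundant hairpins were all one-sided. All 10 of the hairpins with the most reads passed the 10-fold mark, 4 toward 5p and 6 toward 3p, against 62.5% of all 168 hairpins. miR-192 had 656011 reads from its 5p arm and 1679 from its 3p arm, and miR-21a had 319136 and 462. miR-200a went the other way, with 595 reads from 5p and 380522 from 3p. The least one-sided of these 10 was miR-145a, at 261621 and 11099, where the 5p arm still held 95.9%.

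By abundance, the 10-fold mark was passed by 33.3% of 15 hairpins with 10 to under 100 reads, by 40.9% of 44 with 100 to under 1000, by 66.1% of 59 with 1000 to under 10000 and by 86% of 50 with more. Few nonzero values lie below 6 reads, which limits the ratio that a hairpin of under 100 reads could show. The part of this limit in the trend was not tested. Only hairpins with both arms listed enter these classes, and the 121 stems with 1 arm listed are in none of them. Whether the trend would hold with those stems was not tested.

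Among the 109 hairpins of at least 1000 reads, the largest excess of a 3p arm belonged to miR-23a, with 7 reads from 5p and 118055 from 3p, and to miR-375, with 6 and 93198. miR-200c (11 and 17423), miR-27b (252 and 299991) and miR-101a (38 and 42718) followed. For miR-365, the 5p arm was listed at 0 beside 1957 reads of 3p. On the 5p side the largest were miR-182, with 19307 reads from 5p and 7 from 3p, miR-100 (14536 and 6), miR-146a (9351 and 6) and miR-183 (24064 and 29). miR-182 and miR-183 are encoded near each other and are known from sensory organs and epithelia. A minor arm at 6 to 11 reads lies at the lower edge of the values, so the size of these ratios is loosely set.

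Similar arms were the exception, and 16 of the 168 hairpins differed by less than 2-fold on values with 1 read added. Nearest to equality among the hairpins of at least 1000 reads was miR-322, with 1029 reads from 5p and 1230 from 3p. Among the let-7 hairpins with both arms listed, let-7d alone had more 3p than 5p reads, 14833 against 9713, whereas let-7f had 51022 from 5p and 1285 from 3p. miR-126a gave 21218 and 38616 reads, so that both arms were abundant. miR-199b gave 18511 and 34591, but the 3p sequence is shared with the miR-199a genes and its reads may come from 3 loci. miR-423, at 1302 and 791, and miR-455, at 1390 and 726, leaned toward 5p.

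**Figure D5:**
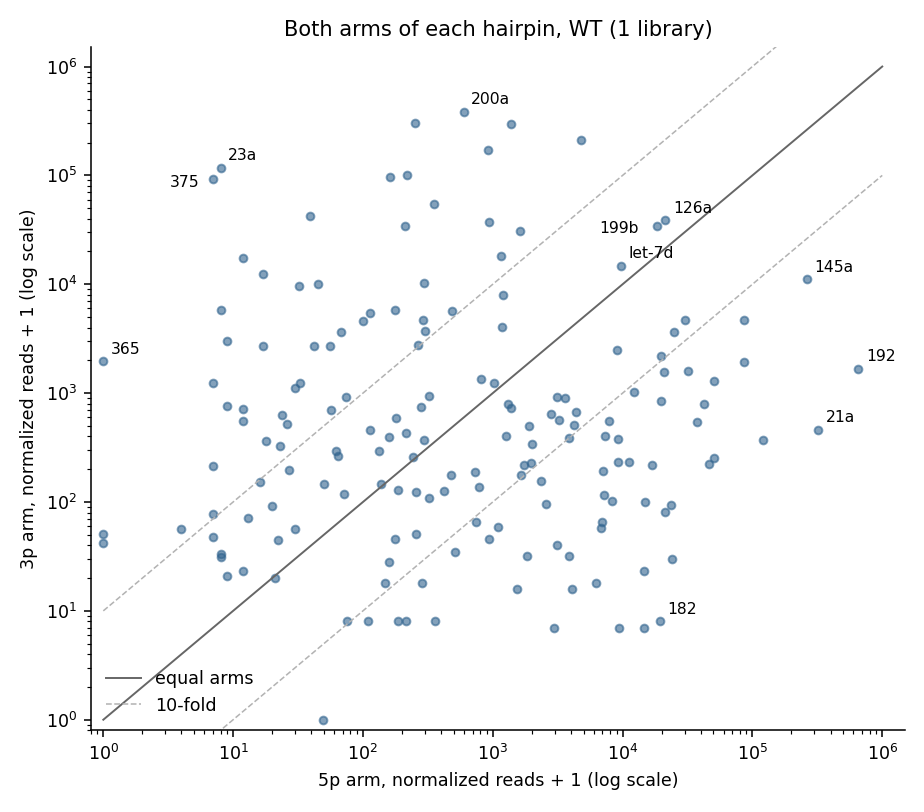
Normalized reads plus 1 of the 3p arm against the 5p arm for the 168 hairpins with both arms listed, on log axes; the solid line marks equal arms and the dashed lines a 10-fold difference. Points lie on both sides, 85 below and 83 above the solid line, and 105 lie on or beyond the dashed lines.

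A further 121 stems had only 1 arm listed, 60 with the 5p and 61 with the 3p arm, and held 5.31% of the total. The most abundant of these were miR-429-3p, miR-23b-3p at 75844, let-7a-5p at 19060 and miR-10b-5p at 18057. An arm that is not listed was not taken as 0.

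The first base of the mature sequence, where Argonaute proteins are known to favour U or A, was counted for the 385 rows with a sequence. They held 78.1% of the WT reads. Abundant rows without a sequence were not counted, among them miR-143-3p (294225 reads), miR-145a-5p (261621), miR-378a-3p (211958), miR-375-3p and miR-23b-3p. The shares of each first base over all WT reads are therefore unknown. U began 43.4% of the 385 rows but 67.1% of their reads. A went the other way, with 28.1% of rows and 10.4% of reads, and G began 8.31% of rows and 0.297% of reads. miR-192-5p begins with C and accounts for most of the 22.2% of reads that begin with C. Without it, U began 81.1% of the reads with a sequence. Of the 25 most abundant rows with a sequence, 20 began with U. These are not the 25 most abundant rows of the column, since the rows named above are missing.

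Within hairpins, U was also more frequent at the start of the higher arm, while A, C and G were less frequent there. In the 126 hairpins with both sequences, the higher arm began with U in 70 (55.6%) and the lower arm in 23 (18.3%). A began 31 higher arms (24.6%) and 45 lower arms (35.7%), C 21 and 39, and G 4 and 19. The higher arm alone began with U in 59 hairpins and the lower arm alone in 12. The excess of U was seen for 5p-dominant hairpins, where 43 of 65 higher arms and 12 of 65 lower arms began with U, and for 3p-dominant ones, where the counts were 27 of 61 and 11 of 61. Median GC content was 45.5% for higher and 47.9% for lower arms. Reads of 22-base miRNAs made up 54.2% and those of 21-base miRNAs 38.8% of the reads with a sequence, against 60% and 16.1% of the rows. These counts are a description of 1 library, with no test.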

How the data were processed

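Per the labels' protocols, total RNA was extracted with Trizol and libraries were made with a TruSeq small RNA kit and sequenced as single-end reads of 50 bases. The submitters' processing notes name mm10 as the build. The authors deposited a score for each miRNA: normalized reads, per the file headers, in whole numbers. How they were normalized, aligned and matched to miRNAs is not given in the sources used here. Other columns that the authors deposited have the unit other, differences between libraries, per the file headers, and these were not used. Low values up to 200 were searched for a step that would give back whole reads. The best of many steps tried fitted 33.3% of 210 values within 0.1 of a step. For a single step fixed in advance, 20% would fit by chance. The chance level for the best of many steps was not computed. No step tried gave back whole reads for all of these values, so depth is unknown and no intervals are given. Adapter ligation is known to favour some sequences, so values of different miRNAs are shares of reads, not of molecules.

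Shares were taken of the WT column total, with values as deposited. Sequences came from RefSeq (GRCm38.p6), where 385 rows, with 78.1% of the WT reads, matched by name and 86 did not. Loci and host genes came from GENCODE M21 and RefSeq. Arms were matched by name, with rows of one name summed, among them 2 rows each of miR-125b-3p and miR-129-3p. A pseudocount of 1 was added for the counts of 2-fold and 10-fold differences. Named miRNAs are the 25 most abundant rows, the 10 largest families and clusters with their members, the hairpins of at least 1000 reads with the most and least equal arms, the leading members of each list, rows at 0 and rows with shared values. Some list members that are not leading ones were named too, such as miR-124-3p, miR-206-3p and miR-223-3p. miR-122-5p was named after its value was seen. The members and lists were chosen with earlier results of these data known. Each further list was also summed: let-7 with both arms held 5.05% of the total, miR-10 and miR-100 2.34%, miR-30 1.62%, miR-29 2.22%, miR-23, miR-27 and miR-24 12.8%, miR-26 3.45%, the miR-17-92 clusters 1.52% and the Dlk1-Dio3 list 0.648%. The grouping steps were tested on simulated data. Python 3.11.15 and pandas 2.3.3 were used.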

Additional observations from a re-analysis of the deposited data

How the results depend on the processing

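Of 37 alternative values, 22 equalled the reported value at 3 digits or, for counts, lay within 1.5 times of it. Leaving miR-192-5p out of the total gave 54.1% for the 10 most abundant rows, 40.9% for 5p rows, 23.3% for the epithelial list and 13.6% for the smooth muscle list with its striated members. Counting rows with a shared value of at least 100 once gave 58.4% for the 10 most abundant rows in place of 58.2%, 48.8% for 5p rows, 33.8% for the epithelial list and 15.3% for the largest seed family. Counting once only rows equal in all columns, an alternative chosen after seeing the data, gave 58.3%, 48.7% and 33.7% for the first 3 of these. Leaving out miRNAs with several loci reduced the leading cluster to Mir192 alone at 13.5%. Gaps of 2 or 50 kb left its share at 14.4%. Taking an arm that is not listed as 0 gave 128 hairpins with the 5p arm higher, 134 with the 3p arm higher and 199 with a 10-fold difference. Depth and replicate spread are unknown, so the error of every share is unknown too. No paired analysis was possible because each group has 1 library and no test was run.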
